A study of Mus musculus with 36 samples.

Results

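The 8 genes described here encode the full-length Groucho corepressors Tle1, Tle2, Tle3 and Tle4 and the β-catenin coactivators Bcl9, Bcl9l, Pygo1 and Pygo2. They were found by matching the Ensembl identifiers of 3 tables of normalized read counts to these gene symbols, and all 8 were present in every table, out of 30125 genes listed in any table. All 8 also passed the filter on low values, a mean of at least 10 normalized counts over the libraries of a table.

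In canonical Wnt signaling, the Tcf/Lef DNA-binding factors recruit Groucho proteins and repress their targets until β-catenin accumulates. Nuclear β-catenin then takes the place of Groucho on the Tcf/Lef factor and carries Bcl9 or Bcl9l, adaptor proteins that in turn hold a Pygopus protein, which reads methylated histone H3 through a PHD finger. Groucho proteins also serve other DNA-binding repressors of the developing kidney, among them Hes1, Six2, Pax2 and Osr1. In the nephron progenitor cell (NPC), a low Wnt input accompanies self-renewal and a high input starts the differentiation of the nephron.

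RNA-seq was made from primary NPCs isolated from kidneys of mouse embryos and cultured in nephron progenitor expansion medium. Wnt input was set with CHIR99021 (CHIR), an inhibitor of GSK3 that stabilizes β-catenin, at 0 (no CHIR), 1.25 (low CHIR) or 5 µM (high CHIR). The 36 libraries formed 15 groups. Wild-type NPCs were cultured in no, low or high CHIR, with 3 libraries each. NPCs with the B-catenin_c_c genotype, a conditional Ctnnb1 allele, received mCherry mRNA either without Cre mRNA (Cre-negative) or with it (Cre-positive), and each was cultured in low or high CHIR, with 2 libraries each. NPCs with the Cas9-eGFP genotype received mCherry mRNA with either sgRNA against GFP or sgRNAs against Ctnnb1, again with 2 libraries at each dose. In a separate Tcf/Lef set, Cas9-eGFP NPCs received sgRNA against GFP (3 libraries at each dose) or sgRNAs against Tcf7, Tcf7l1, Tcf7l2 and Lef1 together (quadruple knockout, QKO; 2 libraries in low and 3 in high CHIR), with a longer knockout period before the dose. All transfected cells were sorted for mCherry, a mark of transfection and not of gene loss, so each removed group was a mixed population of targeted alleles.

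Read totals recovered from the values ran from 13089780 to 27838106 per library, apart from 1 wild-type no CHIR library with 76071568. One wild-type high CHIR library, replicate 3, stood apart from its group, with a mean correlation of 0.916 with the other two against 0.947 and 0.942 for those. Six2, the transcription factor that maintains the progenitor state, was detected in every library, between 60.5 and 3545 normalized counts. Ctnnb1 transcripts fell in the Cas9-targeted NPCs in high CHIR (log2 fold change −0.89, adjusted p = 0.0429), where the libraries held 1270 to 1630 normalized counts against 2632 to 2701 in the GFP sgRNA controls. In low CHIR the corresponding ranges were 1040 to 1652 and 2521 to 3397, which did not overlap, but the fall was not called. In Cre-positive NPCs Ctnnb1 stood at 2254 to 2583 in high CHIR, against 2207 to 2423 in the Cre-negative controls. In low CHIR the Cre-positive libraries, 2451 and 3085, lay below the Cre-negative ones, 3097 and 3880, and the difference did not pass the test (log2 fold change −0.33, adjusted p = 0.657). The count covers the whole gene and so does not show whether the conditional exons were lost. In QKO NPCs in high CHIR, Tcf7 fell (log2 fold change −1.64, adjusted p = 0.0175), and Lef1, Tcf7l1 and Tcf7l2 did not pass the test (adjusted p between 0.131 and 0.778). These counts are of RNA and do not measure protein. By immunostaining, the paper reports less β-catenin protein after both Cas9 and Cre removal. It also reports loss of each Tcf/Lef protein when its gene was targeted alone.

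Per kb of exons, Pygo2 was the most abundant of the 8 transcripts in low CHIR wild-type NPCs, and the 3 other Groucho genes lay below Tle2. The mean for Pygo2, a widely expressed Pygopus, was 187 ± 45.5 normalized counts per kb (SD, n = 3), and its lowest library lay above every other member. Tle2 (98.9 ± 7.93), Bcl9l (97.6 ± 16.5), Bcl9 (76.6 ± 15.7) and Tle4 (71.9 ± 5.61) followed, each overlapping the next in the order. Below Tle4, and not overlapping it, came Pygo1 (58.8 ± 7.43), Tle1 (53.6 ± 12.1) and Tle3 (50.5 ± 3.22), whose ranges overlapped each other in turn. These levels divide the count by the summed length of all annotated exons, so a gene expressed from a short isoform is placed too low.

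The 8 members differed in how far they moved across conditions. Bcl9l and Tle2 had the widest range. The highest group mean was 3.15 times the lowest for Bcl9l in the wild-type table, and 3.38 times the lowest for Tle2 in the Ctnnb1 table. Tle4 followed with ratios of up to 2.16, while Bcl9 did not exceed 1.42 in any table.

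Bcl9l was lower in high than in low CHIR in all 4 sets of NPCs with intact β-catenin and Tcf/Lef genes. In wild-type NPCs it stood at 816, 634 and 891 normalized counts in low CHIR and at 364, 290 and 395 in high CHIR. In no CHIR the 3 libraries held 1207, 1063 and 1032. The 3 doses did not overlap, and the level was lowest in high CHIR and highest without CHIR. The fall from low to high CHIR was −1.15 on the log2 scale (standard error, SE, 0.18, limma adjusted p = 0.00261), and from no to high CHIR it was −1.66 (SE 0.18, adjusted p = 1.61e-04). The step between no and low CHIR, 0.51 higher without CHIR (95% interval 0.11 to 0.90), did not pass the threshold after adjustment (adjusted p = 0.129). Both falls to high CHIR stayed past the threshold without any single library.

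**Figure D1:**
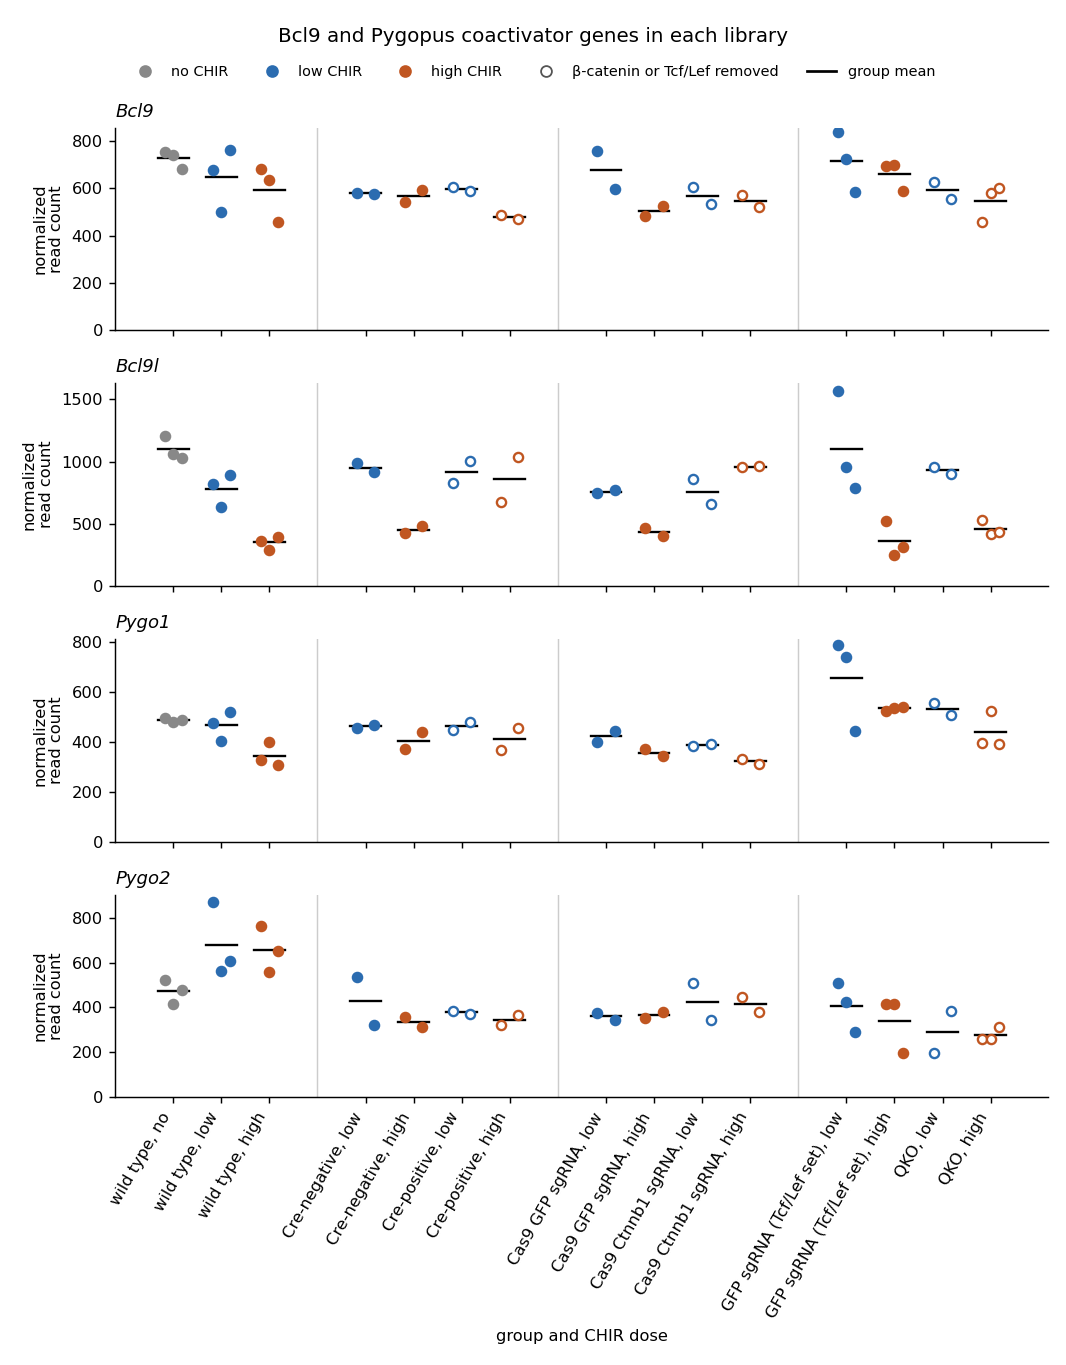
Normalized read counts (vertical axes, from 0) of Bcl9, Bcl9l, Pygo1 and Pygo2 in each of the 36 libraries, by group and CHIR dose; points are libraries, filled for intact and open for removed β-catenin or Tcf/Lef factors, and bars are group means. Bcl9l lay between 248 and 520 in the high CHIR controls of all sets, at or above 634 in every low CHIR library, and between 679 and 1035 in high CHIR after β-catenin removal.

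The same direction held in the transfected controls. In Cre-negative NPCs, Bcl9l fell from 990 and 914 normalized counts in low CHIR to 425 and 478 in high CHIR (log2 fold change −1.07, SE 0.21, adjusted p = 0.00546). In the Cas9 GFP sgRNA controls it fell from 744 and 774 to 468 and 403 (−0.80, SE 0.21, adjusted p = 0.0327). In the GFP sgRNA controls of the Tcf/Lef set it fell from 1564, 956 and 787 to 520, 248 and 311 (−1.62, SE 0.28, adjusted p = 0.00225). The low and high CHIR libraries did not overlap in any of these sets. Across the genes tested in all 3 tables, 1.5% were called lower in high CHIR in all 4 sets and 0.956% higher, and Bcl9l was the only member among them. The Cas9 control result was the least secure, since it was lost with any single library left out. It was also not called by edgeR, which kept only replicate 2 of the low CHIR group. The Cre-negative call was lost without high CHIR replicate 1 (adjusted p = 0.0529).

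Of the other 3 coactivators, Pygo1 was the closest to following Bcl9l. Pygo1, the Pygopus paralogue with the more restricted expression, held 495, 480 and 488 normalized counts in wild-type NPCs in no CHIR, 477, 402 and 517 in low CHIR and 325, 399 and 306 in high CHIR. The high CHIR libraries lay below those of both other doses. High against no CHIR passed the test (log2 fold change −0.51, SE 0.17, adjusted p = 0.0451), but not with those groups fitted alone (adjusted p = 0.0784) or without the filter on low values (0.0631). The replicate block also removed the call. So did leaving out any single library of those groups other than high CHIR replicate 2 (adjusted p between 0.0783 and 0.124). In the 3 sets of transfected controls the log2 fold changes of high against low CHIR lay between −0.25 and −0.20, with 95% intervals that included 0. In the Tcf/Lef set, where low CHIR replicate 3 held 444 against 788 and 738 in its group, the value without that library was −0.51 (adjusted p = 0.0443).

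Bcl9, the paralogue of Bcl9l, and Pygo2 passed the test in no comparison of the main analysis. Bcl9 ranged from 458 to 839 normalized counts over the 36 libraries, and its low and high CHIR libraries overlapped in wild-type NPCs (502 to 762 in low, 460 to 682 in high). In the Cas9 GFP sgRNA controls it stood at 760 and 600 in low and 483 and 527 in high CHIR (log2 fold change −0.42, 95% interval −0.78 to −0.06, adjusted p = 0.170). In the other 3 control sets the Bcl9 fold changes were between −0.13 and −0.03 with intervals that included 0. No difference between Bcl9 and its paralogue in the response to CHIR was tested.

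Pygo2 had its lowest wild-type values without CHIR. In wild-type NPCs it held 524, 416 and 477 normalized counts in no CHIR, 869, 562 and 608 in low CHIR and 761, 560 and 652 in high CHIR. The no CHIR libraries were the lowest and overlapped neither other dose. The difference for no against low CHIR was −0.50 on the log2 scale (95% interval −0.95 to −0.06, adjusted p = 0.171). High against no CHIR gave 0.47 (0.03 to 0.91, adjusted p = 0.111). Neither passed the threshold in the main fit, but the replicate block brought high against no CHIR past it.

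Bcl9l rose on removal of β-catenin in high CHIR, by both methods of removal. After Cas9 removal the 2 libraries held 952 and 961 normalized counts, against 468 and 403 in the GFP sgRNA controls, a rise of 1.14 on the log2 scale (SE 0.21, adjusted p = 0.00642), or 2.20-fold. After Cre removal they held 679 and 1035, against 425 and 478 in the Cre-negative controls, a rise of 0.89 (SE 0.21, adjusted p = 0.0164). The removed and control libraries did not overlap in either system. The Cas9 call was lost without Ctnnb1 sgRNA replicate 2 (adjusted p = 0.0737) or GFP sgRNA replicate 2 (0.0941). The Cre call was lost without Cre-negative replicate 1 (0.116) or Cre-positive replicate 2 (log2 fold change 0.59, adjusted p = 0.163), and when those 4 libraries were fitted alone (0.141). The summed counts of 7 stromal genes were also higher after removal in high CHIR, comparing libraries of the same replicate number. They were 17870 and 11320 with Ctnnb1 sgRNA against 12560 and 3692 with GFP sgRNA, ranges that overlapped. For Cre they were 6406 and 11700 against 3605 and 4826. The same held in low CHIR, at 23530 and 11960 against 18740 and 7129 for Cas9. For Cre in low CHIR they were 10020 and 14720 against 4092 and 9380. The part of the stromal genes in the result was not tested.

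In low CHIR no rise of Bcl9l was detectable on β-catenin removal. It stood at 857 and 661 normalized counts with Ctnnb1 sgRNA against 744 and 774 with GFP sgRNA (log2 fold change −0.01, 95% interval −0.46 to 0.44), and at 830 and 1005 in Cre-positive against 990 and 914 in Cre-negative NPCs (−0.06, −0.51 to 0.39). The removed and control libraries overlapped in both systems. The effect of removal was 1.15 higher in high than in low CHIR for Cas9 (95% interval 0.51 to 1.79, adjusted p = 0.179) and 0.95 higher for Cre (0.31 to 1.59, adjusted p = 0.234). These differences between doses did not pass the threshold over all genes. The fit with a replicate block called the Cas9 difference (adjusted p = 0.0398). DESeq2 had a single Cre-positive library in high CHIR, replicate 2 with 1035 normalized counts, without replicate 1 with 679. It also had a single GFP sgRNA library in low CHIR, so its results for Bcl9l in these differences are not given.

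Bcl9l did not pass the test on loss of the 4 Tcf/Lef factors. In high CHIR the QKO libraries held 529, 417 and 435 normalized counts, against 520, 248 and 311 in the GFP sgRNA controls, and the groups overlapped. The log2 fold change was 0.42, with a 95% interval of −0.20 to 1.04 (adjusted p = 0.545). Each QKO library lay above the control of the same replicate number, and with the replicate block the adjusted p was 0.212 (unadjusted p = 0.0442). All 3 QKO libraries in high CHIR lay below both QKO libraries in low CHIR, at 956 and 900. The β-catenin and Tcf/Lef sets were normalized separately and had different knockout periods, so their fold changes were not compared by a test.

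Among the Groucho genes, Tle2 had the largest falls in high CHIR. In the GFP sgRNA controls of the Tcf/Lef set it went from 696, 822 and 450 normalized counts in low CHIR to 344, 290 and 219 in high CHIR (log2 fold change −1.18, SE 0.26, adjusted p = 0.00973). In the Cas9 GFP sgRNA controls it went from 656 and 415 to 144 and 238 (−1.49, SE 0.36, adjusted p = 0.0226). The high CHIR libraries lay below every low CHIR library in both sets. The Cas9 result was not past the threshold by edgeR or DESeq2, which kept only replicate 2 of the low CHIR group. It was also lost in the limma fit without low CHIR replicate 1 or high CHIR replicate 1. The Tcf/Lef result was lost without low CHIR replicate 2 (0.0514).

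The 2 remaining sets gave values of the same sign for Tle2 that did not pass the test. In Cre-negative NPCs it stood at 506 and 504 in low and 287 and 302 in high CHIR (−0.78, SE 0.36, adjusted p = 0.219). In wild-type NPCs it stood at 687, 552 and 842 in no, 647, 558 and 641 in low and 570, 451 and 457 in high CHIR. The wild-type libraries in high and low CHIR overlapped (−0.32, −0.73 to 0.08, adjusted p = 0.317). High against no CHIR gave −0.48 (adjusted p = 0.0834), which was past the threshold by DESeq2 (0.0475) and without no CHIR replicate 2 (0.0352).

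After Cas9 removal of β-catenin in high CHIR, Tle2 stood at 383 and 414 normalized counts, above the 144 and 238 of the controls and just below the lower of the low CHIR controls, 415. The log2 fold change was 1.10 (95% interval 0.32 to 1.87, adjusted p = 0.100). It passed the threshold by DESeq2 (0.0248), with the replicate number as a block (0.0311) and when the 4 libraries were fitted alone (0.0447). After Cre removal the Cre-positive libraries, 426 and 232, spanned the Cre-negative ones (0.09, 95% interval −0.68 to 0.87), and the value was −0.34 without Cre-positive replicate 1. In QKO NPCs in high CHIR, at 236, 349 and 353, Tle2 overlapped its controls (0.14, −0.44 to 0.71).

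**Figure D2:**
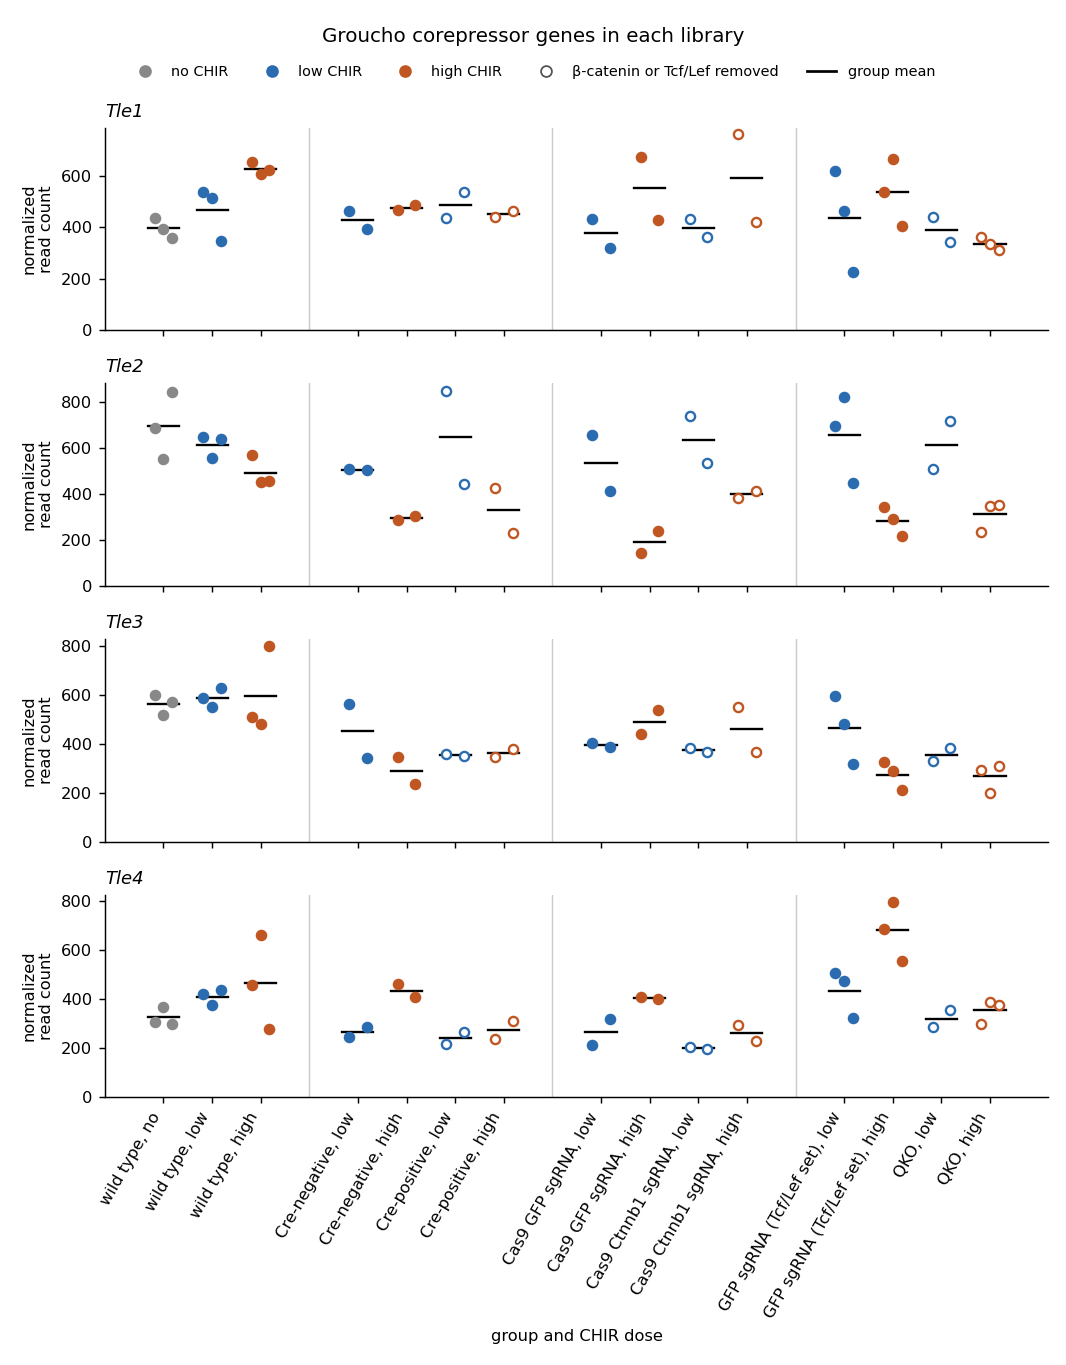
Normalized read counts (vertical axes, from 0) of Tle1, Tle2, Tle3 and Tle4 in each of the 36 libraries, by group and CHIR dose; points are libraries, filled for intact and open for removed β-catenin or Tcf/Lef factors, and bars are group means. In the 3 transfected control sets every high CHIR library lay below every low CHIR library for Tle2 and above every low CHIR library for Tle4. The Tle4 differences, and that of Tle2 in the Cre-negative controls, were not called in the main fit.

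The values of Tle4 were higher in high than in low CHIR in the transfected controls. In the GFP sgRNA controls of the Tcf/Lef set it held 506, 475 and 322 normalized counts in low CHIR and 685, 794 and 556 in high CHIR. In the Cre-negative controls it held 247 and 288 in low and 459 and 407 in high CHIR, and in the Cas9 GFP sgRNA controls 213 and 319 in low and 410 and 398 in high CHIR. The high CHIR libraries lay above the low CHIR libraries in all 3 of these sets, by 0.65, 0.70 and 0.63 on the log2 scale in this order. None passed the threshold in the main fit, which had no replicate block (adjusted p = 0.0548, 0.104 and 0.152). The share of all genes whose libraries separate in this way was not counted, and the Cre-negative and Cas9 sets had 2 libraries at each dose. In the Tcf/Lef set same-numbered libraries deviated together, and the value with the replicate number as a block was past the threshold (0.0273). So was the value without high CHIR replicate 3 (0.0407). DESeq2 called the Cre-negative value (0.0410).

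In wild-type NPCs the values of Tle4 depended on 1 high CHIR library. They were 308, 369 and 297 normalized counts in no, 419, 374 and 436 in low and 455, 659 and 278 in high CHIR, the last from the library that stood apart. High against low CHIR gave 0.09 (95% interval −0.51 to 0.70), or 0.42 without that library (adjusted p = 0.236). High against no CHIR gave 0.43 (adjusted p = 0.281), or 0.76 without it (adjusted p = 0.0177).

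Tle4 was the only member called on loss of the Tcf/Lef factors. In high CHIR the QKO libraries held 297, 390 and 374 normalized counts, against 685, 794 and 556 in the controls, and all 3 lay below every control. The fall was −0.93 on the log2 scale (SE 0.21, adjusted p = 0.0388), to 0.524 times the control level. With the replicate block the adjusted p was 0.0127. By edgeR, which left out control replicate 2 with its 794 normalized counts, it was 0.169. The call was lost on leaving out any single library of the 2 groups except control replicate 3, with adjusted p between 0.0946 and 0.180. In low CHIR the QKO libraries held 285 and 354 against 506, 475 and 322, and the groups overlapped (−0.42, 95% interval −0.94 to 0.09).

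Removal of β-catenin in high CHIR gave lower values of Tle4 that did not pass the threshold. The libraries held 295 and 229 normalized counts with Ctnnb1 sgRNA against 410 and 398 with GFP sgRNA, and 235 and 310 in Cre-positive against 459 and 407 in Cre-negative NPCs. The removed libraries lay below the controls in both systems. The log2 fold changes were −0.64 (95% interval −1.16 to −0.11, adjusted p = 0.162) and −0.68 (−1.20 to −0.15, adjusted p = 0.114), and no alternative setting brought either past the threshold.

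**Figure D3:**
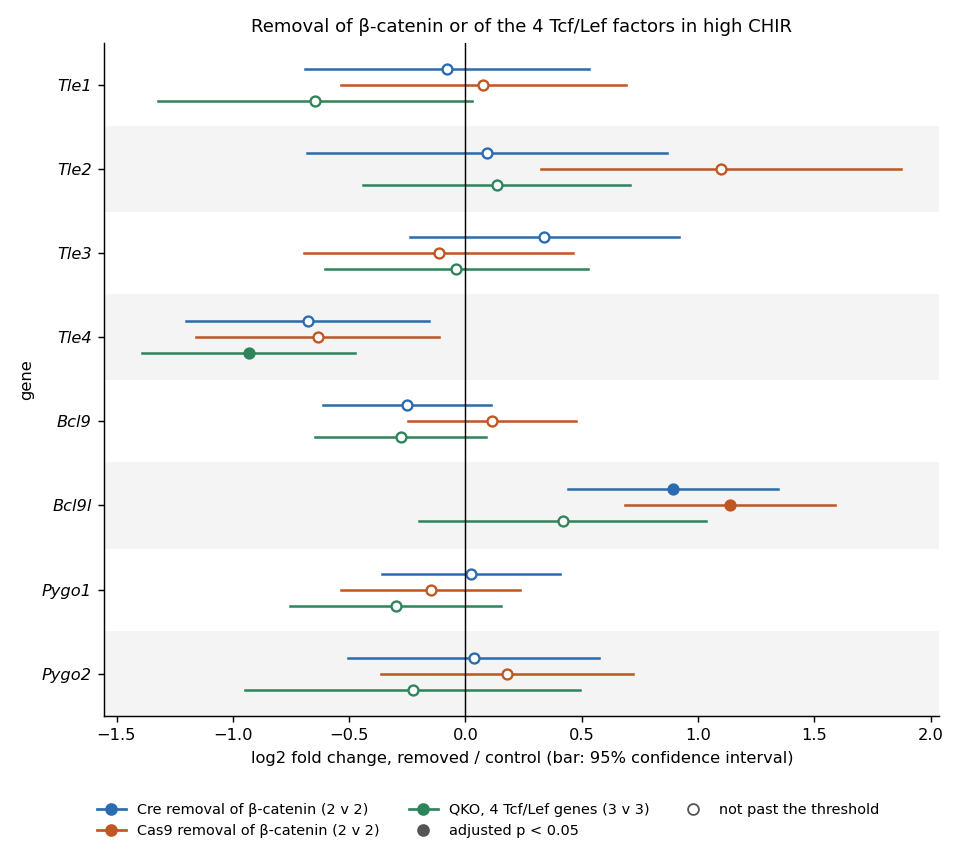
Log2 fold changes (horizontal axis) of the 8 genes after removal of β-catenin by Cre or Cas9, or of the 4 Tcf/Lef factors (QKO), in high CHIR; points are limma estimates against the matched controls, bars are 95% confidence intervals, and filled points have an adjusted p under 0.05. Bcl9l lay above 0 for both β-catenin removals (0.89 and 1.14), and Tle4 lay below 0 in all 3 comparisons (−0.68, −0.64 and −0.93).

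Tle1 was higher in high CHIR than without CHIR in wild-type NPCs. It held 438, 394 and 360 normalized counts in no CHIR, 539, 517 and 346 in low CHIR and 655, 610 and 623 in high CHIR, so that the high CHIR libraries lay above all others. High against no CHIR passed the test (log2 fold change 0.67, SE 0.19, adjusted p = 0.0269). It was lost without no CHIR replicate 2 (0.0611) or 3 (0.104), or without high CHIR replicate 1 (0.0761) or 2 (0.0539). High against low CHIR gave 0.46 (95% interval 0.04 to 0.87, adjusted p = 0.165). In the 3 transfected control sets the values lay between 0.16 and 0.53 with intervals that included 0, and in the Tcf/Lef set the value was −0.026 without low CHIR replicate 3. In QKO NPCs in high CHIR, Tle1 stood at 363, 337 and 311, below the 540, 665 and 407 of the controls (−0.65, −1.32 to 0.03, adjusted p = 0.376).

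Tle3 did not move in one direction across the sets. In the Tcf/Lef controls it held 596, 483 and 318 normalized counts in low and 325, 288 and 209 in high CHIR (log2 fold change −0.74, 95% interval −1.30 to −0.17, adjusted p = 0.0778). With the replicate block the adjusted p was 0.0445, and without low CHIR replicate 3, whose 318 lay within the high CHIR range, it was 0.0154. In the Cre-negative controls Tle3 stood at 563 and 342 in low and 345 and 236 in high CHIR (−0.62, −1.20 to −0.04, adjusted p = 0.188), or −0.98 without low CHIR replicate 2 (adjusted p = 0.0483). In the Cas9 controls and in wild-type NPCs the intervals included 0, and the library that stood apart held the highest wild-type value, 799.

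**Figure D4:**
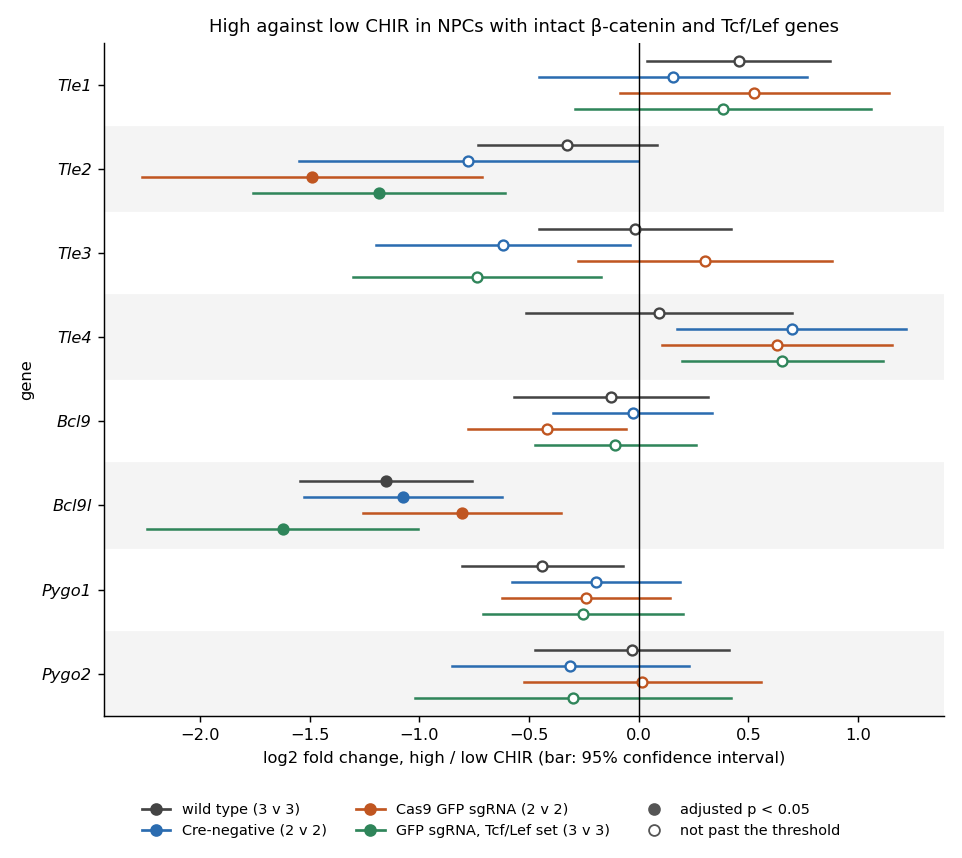
Log2 fold changes (horizontal axis) of the 8 genes in high against low CHIR in the 4 control sets; points are limma estimates, bars are 95% confidence intervals, and filled points have an adjusted p under 0.05. Bcl9l lay below 0 and was called in all 4 sets (−1.62 to −0.80), and Tle2 was called in 2 of them.

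In the main analysis, Bcl9l, Tle2, Tle4, Tle1 and Pygo1 were each called in at least 1 comparison, and Tle3, Bcl9 and Pygo2 in none. Between high and low CHIR, 1 of 8 members was called in wild-type NPCs, where 10.6% of all genes tested were called. The number was 1 in Cre-negative NPCs (8.06%) and 2 in the Cas9 GFP sgRNA controls (7.51%). In the Tcf/Lef controls it was 2 (15.6%), or 4 with the replicate block (24.5%). High against no CHIR called 3 of 8 (24.6%) and no against low CHIR 0 of 8 (5.04%). In high CHIR, Cre removal called 1 of 8 (8.65%), Cas9 removal 1 (5.09%) and QKO 1 (2.56%). In low CHIR none of these called a member, where 0.328%, 0.0536% and 0.0063% of genes were called in this order. No member had an unadjusted limma p under 0.05 in those 3 comparisons, and edgeR and DESeq2 called none either, with 1 unadjusted p under 0.05 by each tool for Cas9 removal. For no against low CHIR, 2 members had an unadjusted p under 0.05 by limma, edgeR and DESeq2 alike. The differences between doses of the Cre, Cas9 and QKO effects called 0 of 8 (0.995%, 0.518% and 0.126% of genes), with 1, 1 and 0 members at an unadjusted p under 0.05.

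The sum of the 4 Groucho genes overlapped between low and high CHIR in all 4 control sets, while the shares of Tle2 and Tle4 did not overlap in the transfected ones. Per kb of exons, the 4 Groucho genes summed to 262 to 290 normalized counts in low and 262 to 300 in high CHIR in wild-type NPCs, to 206 and 226 against 210 and 196 in Cre-negative NPCs, to 227 and 193 against 210 and 204 in the Cas9 controls, and to 182 to 323 against 197 to 287 in the Tcf/Lef controls. Tle2 made up 34.6% to 46.4% of that sum in the low CHIR libraries of the 3 transfected control sets and no more than 24.8% in the high CHIR libraries. Tle4 made up 16.4% to 31.0% in low CHIR and 34.2% to 49.4% in high CHIR. These ranges did not overlap. The shares are parts of the same sum, so a fall of Tle2 by itself raises the share of Tle4. The overlap of the sums does not show that the total was unchanged. In wild-type NPCs the share of Tle2 was 34.2% to 37.7% in low and 24.2% to 31.6% in high CHIR, whereas that of Tle4 overlapped, with 18.6% to 38.6% in high CHIR and up to 28.0% in low CHIR.

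**Figure D5:**
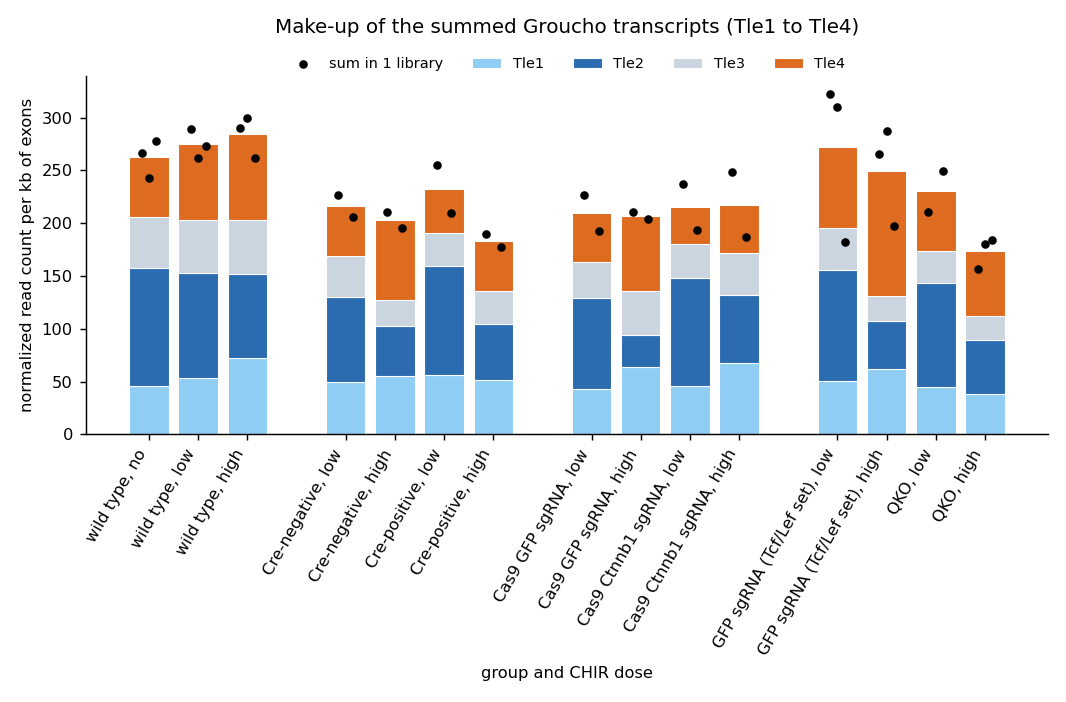
Summed normalized read count per kb of exons (vertical axis, from 0) of Tle1, Tle2, Tle3 and Tle4 by group and CHIR dose; stacked bars are group means of each gene and black points are the sums in single libraries. The Tle2 segment was smaller and the Tle4 segment larger in the high than in the low CHIR bars of the transfected controls, and the QKO high CHIR sums lay between 157 and 185.

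After β-catenin removal in high CHIR the shares of Tle4 were 20.8% and 21.5% with Ctnnb1 sgRNA against 34.2% and 34.3% with GFP sgRNA, and 21.7% and 30.6% in Cre-positive against 38.3% and 36.4% in Cre-negative NPCs. The removed libraries lay below the controls in both systems. In QKO NPCs in high CHIR the Tle4 share was 33.2% to 37.9% against 45.3% to 49.4%. The 4 coactivators summed to 398 and 330 normalized counts per kb in low against 264 and 271 in high CHIR in Cre-negative NPCs, and to 338 and 319 against 260 and 260 in the Cas9 controls, without overlap. In wild-type NPCs they summed to 344 to 482 against 316 to 377, and in the Tcf/Lef controls to 303 to 535 against 231 to 328, with overlap. These sums and shares are descriptions across genes of unequal isoform make-up and were not tested.

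Markers of cell types and cell state moved with CHIR beside these results. The summed counts of 7 nephron progenitor genes were 15250 to 20770 in low and 3903 to 7247 in high CHIR in wild-type NPCs, and 19690 to 27500 in low against 9022 to 11910 in high CHIR over the 3 transfected control sets. After β-catenin removal in high CHIR they were 13490 to 17990, above those controls, and in QKO NPCs 10430 to 12850. The ureteric epithelial list, of which 5 of 6 genes were in the wild-type and Ctnnb1 tables and 6 in the Tcf/Lef table, was higher in high CHIR. It summed to 1715 to 5929 against 565 to 790 in wild-type NPCs and to 757 to 1394 against 312 to 570 in the transfected controls. Hoxb7 (up to 1544) and Gata3 (up to 4283) carried these sums, while Calb1 did not exceed 54.9, Wnt11 49.5 and Ret 7.32.

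The sum of the 7 stromal genes ranged from 254 to 26830 over all libraries, carried by Col1a1 (up to 18640), Col3a1 (up to 7531) and Pdgfrb (up to 3315), with Foxd1 and Tbx18 no higher than 45.99 and 32.5. Its ranges overlapped between doses in each control set, but each high CHIR control lay below the low CHIR control of the same replicate number. In high CHIR it was higher in each QKO library (7260, 2392 and 586) than in the control of the same number (3103, 631 and 254), as after β-catenin removal. The sum of 5 endothelial genes reached 784 and 611 in wild-type high CHIR replicates 1 and 2 and 212 in the Tcf/Lef high CHIR controls, and was carried by Tek (up to 769 and 172), with the other 4 genes at no more than 33.7. Of 6 blood genes, 5 were in the wild-type and Tcf/Lef tables and 4 in the Ctnnb1 table. They summed to 888 to 1200 in no, 665 to 805 in low and 194 to 292 in high CHIR in wild-type NPCs, without overlap, mostly from Lyz2 (up to 1152). In the other tables the sum did not exceed 43.0 apart from 2769 in 1 Tcf/Lef high CHIR control. The part of these differences in the results was not tested. In bulk RNA, fewer cells of a type and less RNA per cell cannot be told apart.

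Genes of the nuclear Wnt complex other than the 8 members were called at shares between 9.09% and 18.2% of the list in high against low CHIR. Of 33 other genes of the nuclear Wnt complex, 2 rose and 2 fell between low and high CHIR in wild-type cells, which is 12.1% of the list beside 10.6% of all genes. Lef1, a Tcf/Lef factor associated with activation, rose (log2 fold change 3.90, adjusted p = 8.82e-04), Tcf7 rose (2.58, 7.33e-04) and Tcf7l1, a Tcf/Lef factor associated with repression through Groucho, fell (−2.85, 9.64e-06). The median log2 fold change of the list was −0.01, beside 0.01 for all genes. In the Cre-negative, Cas9 and Tcf/Lef controls, 1, 2 and 4 genes of the list rose and 2, 2 and 2 fell, Lef1 and Tcf7l1 among them each time. These are 9.09%, 12.1% and 18.2% of the list beside 8.06%, 7.51% and 15.6% of all genes.

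On β-catenin removal in high CHIR the same list held 2 genes that rose and 2 that fell for Cre, and 1 that rose and 4 that fell for Cas9, or 12.1% and 15.2% of the list beside 8.65% and 5.09% of all genes. Lef1 fell (−3.34 and −2.62, adjusted p = 3.84e-04 and 0.00435) and Tcf7l1 rose (1.81 and 1.53, adjusted p = 2.71e-04 and 0.00198). In QKO NPCs in high CHIR, 0 rose and 2 fell (6.06% beside 2.56%), and these were Tcf7 and Ssbp3, which binds the Ldb1 adaptor (−0.94, adjusted p = 0.0151). The list holds Ctnnb1 and the 4 Tcf/Lef genes, which were the targets of removal. Ctnnb1 fell on Cas9 removal and Tcf7 in QKO NPCs, so the shares called on removal are no result on the rest of the list. In low CHIR, limma called 0 genes of the list on Cre removal, on Cas9 removal and in QKO NPCs, with 3, 2 and 3 at an unadjusted p under 0.05.

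Of 11 DNA-binding factors that recruit Groucho, 2 rose and 3 fell in wild-type NPCs between low and high CHIR, and 6 were not called. In that comparison 10.6% of all genes were called. The list was chosen with earlier results of these data known. It holds Six2, Osr1, Pax2 and Emx2, which the paper reports to respond to CHIR or to β-catenin removal. Its share called, here and below, is therefore no result on Groucho partners. The median of the list was −0.40 on the log2 scale, beside 0.01 for all genes. Between no and low CHIR 1 of the 11 was called (5.04% of all genes). Osr1, a repressor of the early kidney, held 667 to 1387 normalized counts in low CHIR and was at 0 in all 3 high CHIR libraries. Six2 fell (log2 fold change −5.40, adjusted p = 3.18e-08) and Runx1, a Runt factor, rose (5.87, 6.12e-05). In the Cre-negative and Cas9 controls 3 and 4 rose and 4 and 1 fell, of 9 tested (8.06% and 7.51% of all genes). In the Tcf/Lef controls 5 rose and 4 fell of 10 tested (15.6% of all genes), and Emx2, a homeobox factor, went from 0.865 to 2.45 normalized counts in low CHIR to 851 to 2490 in high CHIR.

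On removal of β-catenin in high CHIR, 4 of these 9 factors rose and 3 fell for Cre, and 1 rose and 1 fell for Cas9, beside 8.65% and 5.09% of all genes. Osr1 rose by both methods (log2 fold change 4.44 and 3.77, adjusted p = 2.21e-06 and 1.84e-05), and Pax2, a determinant of the nephric lineage, fell (−2.55 and −1.87, adjusted p = 6.57e-05 and 0.00147). In QKO NPCs in high CHIR, Osr1 (2.18, adjusted p = 0.00289), Six2 (1.64, 0.0226) and Hes1, a Notch effector (1.18, 0.0198), rose and none of the 10 fell (2.56% of all genes were called). In low CHIR, limma called 0 of these factors on Cre removal, on Cas9 removal and in QKO NPCs, with 1, 1 and 0 at an unadjusted p under 0.05.

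Over the 15 group means, the genes whose pattern was most like that of Bcl9l were Pwwp2b (Pearson r = 0.975) and Lingo1 (0.972). Those for Tle4 were Slc35e2 (0.972) and Zfp503 (0.949), for Tle2 Atg2a (0.962) and Tnfaip8l1 (0.948), and for Pygo1 Zfyve9 (0.946) and Setd1b (0.942). For Tle1, Tle3, Bcl9 and Pygo2 no gene exceeded 0.893. Among the members, Tle2 and Bcl9l were alike (r = 0.768), and Tle4 ran against both (−0.736 with Tle2 and −0.696 with Bcl9l). These values describe 15 groups that share cultures, tables and control arms, out of 11712 genes compared.

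In the annotation used (GENCODE vM21, GRCm38), Bcl9l (chr9:44482825-44511896, plus strand), Tle3 (chr9:61372366-61418497, plus) and Pygo1 (chr9:72925645-72952181, plus) are on chromosome 9, and Pygo2 (chr3:89430214-89435128, plus) and Bcl9 (chr3:97203662-97297917, minus) on chromosome 3. Tle1 is at chr4:72117142-72200919 (minus), Tle2 at chr10:81574561-81590845 (plus) and Tle4 at chr19:14448150-14598051 (minus). Bcl9l shares 662 exonic bases with Gm47205 and 110 with Cxcr5, both on the other strand, and Tle1 and Tle2 share 247 and 98 with Gm11250 and Gm15917. Whether the counting used strand was not given in the sources used here. Cxcr5 did not exceed 4.94 normalized counts where listed, and Gm47205 5.92. The paper counted only unambiguous reads, so these low counts do not show whether Bcl9l reads in the shared bases were dropped. The 3′ end of Tle2 lies 58 bases from Tle6, which held 158 to 542.

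RefSeq promoter windows (GRCm38.p6, 250 bases before to 50 after each start) were found for 7 of the 8 members, 10 windows in all. Bcl9l had no window, so the counts below do not cover it, and Tle4 and Pygo2 had more than 1. None held CTTTGA or CTTTGT, the core of the Tcf/Lef motif, on either strand, where 31.2% of 32851 mouse windows held at least 1. No match says only that these letters are not in the window. The upstream 250 bases are shown for Tle4 and Pygo1, the members called in a comparison whose upstream window holds no annotated exon, with GC boxes (GGGCGG on either strand, in 35.7% of all windows) in capitals.
Tle4, chr19:14598184-14598433, minus strand: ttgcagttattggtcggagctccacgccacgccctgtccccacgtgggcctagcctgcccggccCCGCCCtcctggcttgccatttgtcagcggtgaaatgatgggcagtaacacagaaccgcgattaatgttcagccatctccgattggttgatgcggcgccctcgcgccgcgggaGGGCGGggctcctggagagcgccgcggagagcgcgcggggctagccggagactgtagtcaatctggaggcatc
Pygo1, chr9:72925395-72925644, plus strand: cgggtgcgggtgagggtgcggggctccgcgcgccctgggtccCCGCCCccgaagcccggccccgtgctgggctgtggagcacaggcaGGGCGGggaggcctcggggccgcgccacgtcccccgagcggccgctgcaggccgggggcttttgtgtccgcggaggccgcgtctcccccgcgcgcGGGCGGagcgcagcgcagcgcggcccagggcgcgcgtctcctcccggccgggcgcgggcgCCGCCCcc
Both stretches are rich in G and C, at 65.2% for Tle4 and 84.0% for Pygo1, with 2 and 4 GC boxes.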

How the data were processed

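RNA was extracted from cultured primary NPCs, copied with a SMARTer kit and sequenced as paired-end Illumina reads. Per the labels and the study's methods, the authors aligned reads with STAR to a combined mouse (GRCm38) and human genome, counted unique reads per gene with Subread featureCounts and divided them by DESeq2 size factors. The 3 deposited tables hold this normalized signal, 1 value per gene and library, and were normalized separately, so tests stayed within a table. Genes with under 10 reads in total were absent from each. Whole reads could be recovered in all libraries, but 3 whose size factor was close to 1 were left out of the count tests. In 8 further tables of the authors' own comparisons, 50 per-sample columns, the fold changes and the p-values were not used.

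The members and gene lists were chosen with earlier results of these data known. Genes were tested with limma (3.58.1) on log2(value + 1), with a variance trend and all libraries of a table in the fit, if their mean over the table was 10 or more. Fold changes are on that scale. P-values are two-sided and Benjamini-Hochberg adjusted over all genes tested (17411, 16780 and 15878), and a gene was called at an adjusted p under 0.05. Named genes were the 8 members and, per list and comparison, at most the 3 called genes with the largest change. The 2 genes most like each member were taken among those with a mean of at least 50 in every table. Alternatives were edgeR (4.0.16) and DESeq2 (1.42.0) on recovered reads, TMM scaling, a pseudocount of 0.5, no filter, fits of the compared groups alone, a replicate block and leaving out each library. The fitting code was tested on simulated data.

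Libraries of the Tcf/Lef table with the same replicate number in their labels deviated together from their group means (correlations of 0.249 to 0.630), so the block is given there where it changed a call. P-values measure the spread between these libraries, since the labels do not say whether replicates were separate cultures.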

Additional observations from a re-analysis of the deposited data

How the results depend on the processing

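Of 120 values (8 members in 15 comparisons), 51 were followed under every alternative, 32 of them because their 95% interval left out 0 or some alternative called them. A pseudocount of 0.5 and TMM scaling moved none of the 51 across the threshold. The other 69 are not given with a direction, and 33 of them changed sign in some fit.

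The number of members called changed as follows. Cas9 removal in high CHIR, 1 in the main analysis, gave 2 with the replicate block, with the compared groups alone and by DESeq2, and Cre removal in high CHIR gave 0 with those groups alone. High against low CHIR gave 2 by DESeq2 in the Cre-negative controls and 4 with the block in the Tcf/Lef controls. In the Cas9 controls edgeR and DESeq2 called fewer members than the main analysis, with a single low CHIR library. QKO in high CHIR gave 0 by edgeR. The difference between doses gave 1 for Cas9 removal with the block, where the adjusted p of Bcl9l was 0.0398. The DESeq2 fit of the Cre difference had a single Cre-positive library in high CHIR, so its count of members is not given. With 1 library left out the counts ranged from 1 to 3 for high against no CHIR, 0 to 1 for both removals and QKO in high CHIR, 0 to 2 in the Cre-negative, 0 to 1 in the Cas9 and 1 to 4 in the Tcf/Lef controls. In these fits a lone library of a group was assumed to vary like the other groups.

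Values that changed sign all had intervals that included 0. For Tle2 after Cre removal in high CHIR, edgeR gave −0.35 and DESeq2 −0.34, both without Cre-positive replicate 1, and with 1 library left out the range was −0.34 to 0.53. For Tle3 in wild-type high against low CHIR, edgeR gave 0.0080 and DESeq2 0.025, with a leave-one-out range of −0.25 to 0.12. In that comparison the ranges were −0.30 to 0.045 for Bcl9 and −0.20 to 0.42 for Tle4. For Bcl9l on removal in low CHIR they were −0.20 to 0.17 (Cas9) and −0.20 to 0.081 (Cre). For Bcl9 they were −0.091 to 0.035 in the Cre-negative and −0.24 to 0.014 in the Tcf/Lef controls, where Tle1 ranged from −0.026 to 0.69. For Tle2 in QKO NPCs in high CHIR the range was −0.040 to 0.33.

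Over all genes, the number called moved by more than 1.5 times as follows. With the block it went from 55 to 515 and 1452 to 2744 for Cre removal in low and high CHIR, 9 to 21 and 854 to 2201 for Cas9 removal, 1352 to 2755, 1260 to 2669 and 2479 to 3889 for high against low CHIR in the Cre-negative, Cas9 and Tcf/Lef controls, 1 to 16 and 407 to 1266 for QKO, and 167 to 526, 87 to 235 and 20 to 136 for the Cre, Cas9 and QKO differences. With the compared groups alone it was 2105 against 878 for no against low CHIR, 11, 714, 0 and 1748 for the removals in that order, 616 in the Cre-negative controls, 51 for the Cre difference and 0 for QKO in low CHIR. By edgeR it was 914 for Cre removal in high CHIR, 0 for Cas9 removal in low CHIR, 628 and 1651 in the Cas9 and Tcf/Lef controls, 156 for QKO in high CHIR, and 106 and 11 for the Cre and QKO differences. By DESeq2 it was 2780 against 1841 for wild-type high against low CHIR, 1940 for no against low, 248 and 1393 for Cre removal in low and Cas9 removal in high CHIR, 24 for QKO in low CHIR and 278, 166 and 113 for the differences. Cas9 removal in low CHIR gave 0 with a pseudocount of 0.5, and QKO in low CHIR 4 without the filter.

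In the wild-type table same-numbered libraries of high and no CHIR deviated together (correlations of 0.072 to 0.272). For high against low CHIR these correlations were 0.039 to 0.147, and for no against low CHIR −0.016 to 0.177. The labels give only the replicate number. In the Ctnnb1 table same-numbered libraries deviated together (correlations of 0.196 to 0.491), but 2 numbers per group are too few to settle whether they pair the libraries. For high against no CHIR the block removed the call of Pygo1 (adjusted p = 0.0626) and added Pygo2 (0.0395). The causes of these changes were not tested. Groups of 2 and 3 libraries limit what was detectable, and edgeR and DESeq2 had fewer libraries than limma.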
